A study of Mus musculus with 13 samples.

Results

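Hepatocytes, the parenchymal cells of the liver, were compared directly with Kupffer cells, its resident macrophages. The comparison rests on 6 of the 13 arrays of the study, the 3 labelled as hepatocytes and the 3 labelled as Kupffer cells. All cells came from naive C57BL/6 mice aged 6 to 10 weeks with no other allele and no treatment named in the labels, and both populations were freshly sorted. The sources used here do not give the gates of the sort, or whether each array came from a separate animal, although the titles call the arrays biological replicates. The p-values therefore measure the spread between arrays of the same population, which may be partly technical. That spread was pooled over 11 arrays, which include endothelial and stellate cell arrays described below. The other arrays held liver sinusoidal endothelial cells (LSEC, 3 arrays, freshly sorted) and hepatic stellate cells (HSC) kept in medium with serum, of which 2 arrays were at 1 day and 1 array each at 7 and at 14 days. The LSEC and 1-day HSC arrays also entered the filter and the estimate of spread behind each p-value. Levels on these other arrays are given only to set genes of the pair beside them.

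Hepatocytes synthesise most plasma proteins, convert ammonia to urea, release glucose, make bile acids and clear drugs through cytochrome P450 and conjugating enzymes. Kupffer cells lie in the sinusoids, where they take up bacteria, endotoxin, aged red cells and immune complexes from portal blood, present antigen and release cytokines. The populations are linked by secreted factors and their receptors, among them the hepatocyte iron hormone hepcidin and its target ferroportin, which exports iron from macrophages.

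For each gene the probe set of highest mean intensity was taken, and values are linear intensities unless a log2 difference is named. Levels of different genes cannot be ranked against each other, because each probe set has its own response. The log2 differences are hepatocytes minus Kupffer cells on log2(intensity + 83), so a positive value means higher in hepatocytes, and the added constant understates the fold of dim genes. A gene was tested if its intensity lay above the pooled median of 224.48 on at least 2 of the 11 arrays in the fit. It was called if its limma p, adjusted by Benjamini-Hochberg over all 12081 genes, fell under 0.05 and the log2 difference reached 1 in either direction. The number of arrays limits the precision. Counts and medians of gene lists cover only the members bright enough to be tested, so they describe those members and are no support for a list as a whole. The lists held 999 genes, of which 850 were tested.

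Hepatocytes and Kupffer cells differed in many genes, with similar numbers in each direction. Of 12081 genes, 1454 (12%) were called higher in hepatocytes. Another 1654 (13.7%) were called higher in Kupffer cells, which made 3108 (25.7%) in all. The counts of called members of each list below are to be read beside these shares. The 3 arrays of one population did not overlap the 3 of the other for 8828 genes (73.1%), so a lack of overlap was common. The median log2 difference over all genes was 0.02. A log2 difference of at least 3 was found for 324 genes on the hepatocyte side and 334 on the Kupffer cell side, and one of at least 5 for 61 and 32 genes. Intensity lay above the pooled median on all 3 hepatocyte arrays and on no Kupffer cell array for 990 genes. The reverse held for 793 genes, and 7922 genes lay above it on all 6 arrays. On the log2 scale across probe sets, which are not independent replicates, the arrays of hepatocytes correlated with each other at 0.9859 to 0.9925, those of Kupffer cells at 0.9935 to 0.9956, and arrays of different populations at 0.761 to 0.7874. The 3 hepatocyte arrays spread more widely than the 3 Kupffer cell arrays, with a median range of 0.23 and 0.16 on the log2 scale. Array medians lay between 216.5 and 232.9. The plot of mean intensities shows the genes off the diagonal in both directions.

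**Figure D1:**
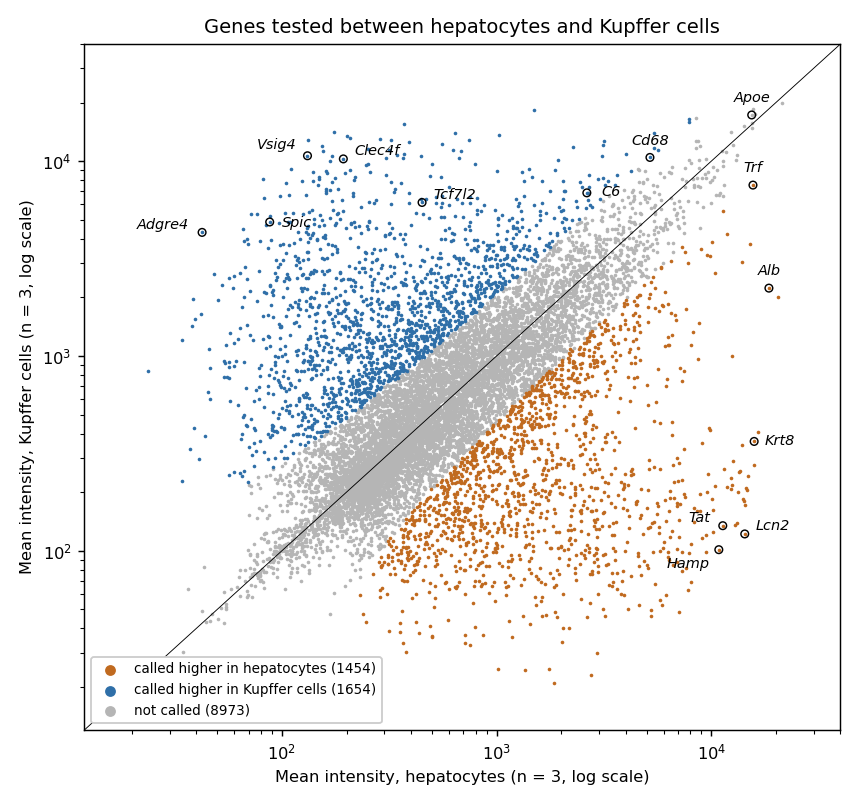
Mean intensity of each of the 12081 tested genes in hepatocytes (x axis, n = 3) and in Kupffer cells (y axis, n = 3), both on log scales, with the diagonal drawn as a line. Genes called higher in hepatocytes are orange (1454), genes called higher in Kupffer cells blue (1654), and the rest grey; circled genes are named in the text.

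The labels were checked against marker genes. Tat, which encodes the hepatocyte enzyme that starts tyrosine breakdown, read 10530, 11150 and 12270 on the hepatocyte arrays, against 165.2, 112.1 and 126.1 on the Kupffer cell arrays, which gave a difference of 5.72 on the log2 scale with an adjusted p of 5.6e-13 (limma, SE 0.098). Clec4f, a lectin of Kupffer cells, read 199.2, 158.8 and 221.8 on the hepatocyte arrays, against 10220, 10150 and 10460 on the Kupffer cell arrays (-5.24, adjusted p = 6e-13). Adgre4, an adhesion receptor gene related to that of F4/80, read 35.93, 43.27 and 48.27 in hepatocytes, against 4135, 4418 and 4384 in Kupffer cells (-5.13, SE 0.07, adjusted p = 4.7e-13). For each of these genes the populations were far apart and replicates lay close together. Alb, which encodes serum albumin, separated the arrays less widely. It read 18470, 18670 and 18560 in hepatocytes, against 3374, 1027 and 2292 in Kupffer cells (3.16, SE 0.31, adjusted p = 1.4e-06). The populations did not overlap, but the Kupffer cell arrays differed widely among themselves, with replicate 1 highest and replicate 2 lowest.

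All 22 tested hepatocyte markers were called higher in hepatocytes and all 22 Kupffer cell markers higher in Kupffer cells, with median log2 differences of 5.21 and -4.62. These markers were known to separate the populations, so the counts check the labels only. Summed hepatocyte marker intensity was 231804 to 247794 on the hepatocyte arrays, against 15437, 11543 and 13741 on Kupffer cell replicates 1, 2 and 3. Of those Kupffer cell sums Trf alone, described below, gave 7407, 7633 and 7590. Summed Kupffer cell marker intensity was 12580 to 14614 on the hepatocyte arrays, against 175955 to 180652 on the Kupffer cell arrays. Of those hepatocyte array sums Cd68 gave 5424, 4869 and 5256, and C6 gave 1998, 3271 and 2633. The median hepatocyte marker stood at 2.49%, 1.43% and 2.02% of its hepatocyte level on Kupffer cell replicates 1, 2 and 3, with 19 of 22 markers in the same order of arrays. The median Kupffer cell marker stood at 3.18%, 2.82% and 3.73% of its Kupffer cell level on hepatocyte replicates 1, 2 and 3, and 18 of 22 were highest on replicate 3. On LSEC arrays the median hepatocyte marker stood at 1.02% to 1.2% of its hepatocyte level. Median hepatocyte marker intensity was 224, 133 and 174 on the Kupffer cell arrays, beside a pooled median of 224.48. Median Kupffer cell marker intensity was 208, 217 and 265 on the hepatocyte arrays. The percentages may therefore include background signal, and a few genes made up much of the sums. In such bulk samples fewer cells of a type and less RNA per cell cannot be told apart.

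Some markers of other cell types were called in either direction. The B cell receptor gene Cd79b read 197.4, 199.6 and 192.9 in hepatocytes, against 1701, 954 and 1556 in Kupffer cells (-2.37), and the B cell lectin gene Cd22 was also called (-2.0). The summed B and plasma cell list of 7 measured genes was 784 to 919 on the hepatocyte arrays, against 3715, 2293 and 2972 on Kupffer cell replicates 1, 2 and 3, while Ms4a1, Pax5, Cd79a and Jchain were too dim to be tested. Of the monocyte and dendritic cell list, Clec9a, a receptor of cross-presenting dendritic cells (-3.65), and Batf3, the transcription factor of those cells (-1.56), were called, and Ccr2, Xcr1, Flt3, Siglech and Cd209a were not tested. None of 9 neutrophil markers lay above the pooled median on any of the 6 arrays. Of 15 LSEC markers 4 were higher in Kupffer cells, led by the junctional cadherin gene Cdh5, which read 710.7, 650.3 and 1030 in hepatocytes, against 10040, 9723 and 9141 in Kupffer cells (-3.49). The others called were Pecam1, Clec4g and Eng, and Clec4g was not called with the mean of all probe sets of a gene (-0.87). The LSEC genes Lyve1, Stab2, Cldn5 and Egfl7 differed by 0.52 or less in size and were not called. Of the members not called, Gpr182 and Fcgr2b differed most. The summed LSEC list was 4372, 3836 and 5264 on hepatocyte replicates 1, 2 and 3, against 17611, 16332 and 14773 on Kupffer cell replicates 1, 2 and 3. Its median log2 difference was -0.41. Of 13 stellate cell markers 1 was called, Ecm1 (-1.98), and neither of the 2 tested T and NK cell markers was. The cholangiocyte list had 2 tested members, Sox9 (2.44) and Onecut1 (1.67), both higher in hepatocytes, and its keratin genes Krt19 and Krt7 were not tested. Of the 4 tested erythroid and platelet markers, Alas2, the haem synthesis gene of red cell precursors, was higher in hepatocytes (2.54), and the platelet genes Ppbp (-1.65) and Pf4 (-1.19) were higher in Kupffer cells. The 5 measured genes of that list summed to 2068, 2449 and 2393 on hepatocyte replicates 1, 2 and 3, against 2588, 1160 and 1369 on Kupffer cell replicates 1, 2 and 3. Pf4 was not called with the pooled median as the added constant (-0.79), nor Ppbp without Kupffer cell replicate 1 (-0.99). The part of other cells in the differences given here was not tested.

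**Figure D2:**
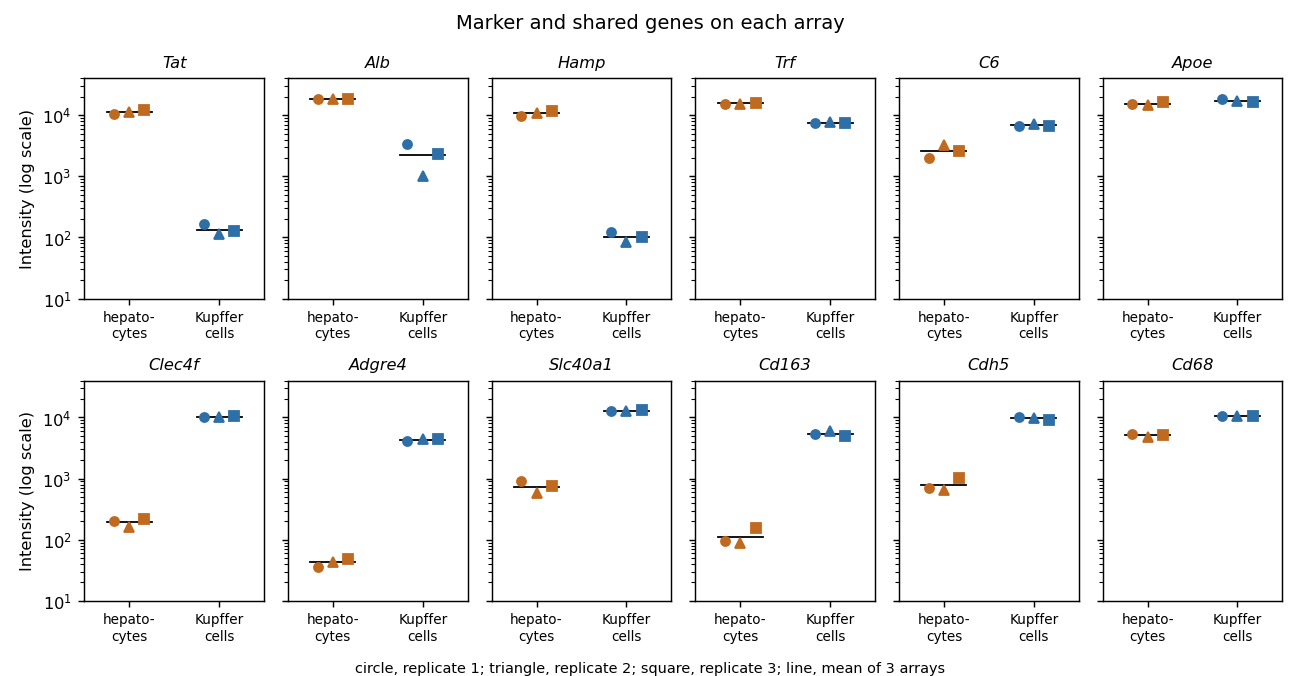
Intensity (log scale) of 12 genes on each of the 3 hepatocyte arrays (orange, left) and 3 Kupffer cell arrays (blue, right); symbols mark replicates and lines the mean. Tat, Hamp, Clec4f, Adgre4 and Cd163 separate the populations widely, Alb spreads from 1027 to 3374 on the Kupffer cell arrays, and Apoe is at a similar level in both, with means of 15440 in hepatocytes and 17280 in Kupffer cells.

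Promoter windows are shown for a hepatocyte and a Kupffer cell gene of the marker check, and for a detoxification gene and a myeloid receptor gene picked because letters of a lineage factor's site are in them. Each is the 250 bases before the RefSeq start in the GRCm38.p6 table, written 5' to 3' on the gene's strand, with matches in capitals. Windows were searched on both strands for GTTAAT (a core of the HNF1 site), CAAAGTCCA (HNF4), TTGCNNAA (C/EBP) and GAGGAAGT (PU.1, encoded by Spi1). Alb lies at chr5:90460620-90460869 on the plus strand, with the HNF1 core 32 to 27 bases before the start and the C/EBP letters on the opposite strand 94 to 87 bases before it. Clec4f lies at chr6:83656117-83656366 on the minus strand, and none of the 4 motifs was found in its window. Cyp3a11 lies at chr5:145879855-145880104 on the minus strand, with the HNF4 letters 109 to 101 bases before the start. Cd300ld, a myeloid immunoglobulin-like receptor gene, lies at chr11:114989887-114990136 on the minus strand, with the PU.1 letters 143 to 136 bases before the start. Cyp3a11 and Cd300ld were chosen after values were seen, as the genes of largest difference whose only window holds the HNF4 or the PU.1 letters. Genes of a single chromosome were left out of that choice.
Alb: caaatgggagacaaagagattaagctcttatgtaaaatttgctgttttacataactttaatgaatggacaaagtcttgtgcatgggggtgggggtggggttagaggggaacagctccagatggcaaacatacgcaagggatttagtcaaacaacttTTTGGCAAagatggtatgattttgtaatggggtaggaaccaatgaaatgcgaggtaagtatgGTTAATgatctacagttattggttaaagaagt
Clec4f: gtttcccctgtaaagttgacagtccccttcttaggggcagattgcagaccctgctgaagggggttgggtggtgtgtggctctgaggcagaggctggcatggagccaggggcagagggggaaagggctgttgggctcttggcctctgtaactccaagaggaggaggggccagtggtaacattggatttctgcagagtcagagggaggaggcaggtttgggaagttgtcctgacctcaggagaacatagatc
Cyp3a11: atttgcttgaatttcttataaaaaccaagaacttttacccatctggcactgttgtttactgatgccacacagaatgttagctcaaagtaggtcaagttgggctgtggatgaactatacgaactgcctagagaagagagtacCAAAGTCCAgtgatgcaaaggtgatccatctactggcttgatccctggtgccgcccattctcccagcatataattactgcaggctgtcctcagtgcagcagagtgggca
Cd300ld: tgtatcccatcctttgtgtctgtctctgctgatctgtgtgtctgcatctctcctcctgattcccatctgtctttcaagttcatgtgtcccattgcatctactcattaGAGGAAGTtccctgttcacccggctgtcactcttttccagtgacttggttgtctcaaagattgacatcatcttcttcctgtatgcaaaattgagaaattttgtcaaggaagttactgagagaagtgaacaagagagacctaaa
Cyp3a11, a P450 gene that oxidises many drugs, read 6189, 7760 and 8056 in hepatocytes, against 87.91, 61.73 and 85.28 in Kupffer cells (5.52). Cd300ld read 88.07, 75.51 and 129.5 in hepatocytes, against 6963, 6740 and 6129 in Kupffer cells (-5.22). Neither gene had arrays of the populations near each other. The letters GAGGAAGT were found in 1.6% of 1440 windows of genes higher in hepatocytes, 4.56% of 1800 windows of genes higher in Kupffer cells and 2.44% of all 32851 windows. GTTAAT was found in 7.64%, 3.89% and 6.43% of the same sets, CAAAGTCCA in 0.972%, 0.5% and 0.384%, and TTGCNNAA in 10.8%, 9.11% and 9.56%. These shares are descriptions of letters and not of binding.

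The gene of widest difference in favour of hepatocytes was Lcn2. This gene, which encodes the iron-siderophore binding acute phase protein lipocalin, read 14560, 14330 and 14120 in hepatocytes, against 123.8, 115.6 and 126.6 in Kupffer cells, so the log2 values differed by 6.14 (adjusted p = 1.5e-10, SE 0.235). Hamp, which encodes hepcidin, read 9853, 10970 and 11720 in hepatocytes, against 121, 82.93 and 100 in Kupffer cells (5.89, SE 0.131, adjusted p = 1.9e-12). Every hepatocyte array lay far above every Kupffer cell array for both. The other genes among the 12 of largest difference were Cyp2e1 at 5.91, Orm1 at 5.88, Fgg at 5.84, Rbp4 at 5.76, Saa2 at 5.74, Cyp4a12a at 5.73, Fbp1, Cyp2f2 and Tat at 5.72 and Ahsg at 5.70. They encode P450 enzymes, an orosomucoid, a fibrinogen chain, the plasma retinol carrier, a serum amyloid protein, fructose bisphosphatase and fetuin-A.

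Of the gene lists, plasma carriers and acute phase proteins differed most uniformly. All 22 tested members were higher in hepatocytes, with a median log2 difference of 5.08 beside 0.02 for all genes. Trf, which encodes the iron carrier transferrin, had the smallest difference. It read 15510, 15380 and 16060 in hepatocytes, against 7407, 7633 and 7590 in Kupffer cells, about 2-fold apart (1.04, SE 0.222, adjusted p = 0.0011). The arrays did not overlap, but the call was lost after quantile normalization (0.78) and after scaling to equal medians (0.98). On LSEC arrays Trf averaged 179, far below both.

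Apolipoprotein genes were higher in hepatocytes for 13 of 16 members (median 3.44), and those of the secreted lipoprotein core showed large differences, with Apoc3 at 5.28, Apoa1 at 5.11, Apoa2 at 5.02 and Apob at 4.37. Apoe and Apoc1, which lie beside each other in the genome, did not follow them. Apoe, a ligand for lipoprotein uptake that macrophages also secrete, read 15300, 14630 and 16390 in hepatocytes, against 18360, 16890 and 16600 in Kupffer cells (-0.16, adjusted p = 0.12). Apoc1 read 11170, 11550 and 11740 in hepatocytes, against 7979, 7575 and 7139 in Kupffer cells, below the minimum difference (0.60, adjusted p = 0.00092). Both transcripts were thus abundant in both populations. Lrp1, the large endocytic receptor for Apoe-bearing remnants, was higher in Kupffer cells (-2.23).

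Complement genes were found on both sides. Of 30 tested members 16 were higher in hepatocytes, 10 higher in Kupffer cells and 4 not called. Hepatocytes were higher for the terminal component genes C9 (5.52), C8b (4.69) and Hc, which encodes C5 (4.95), and for Serping1, which encodes the C1 inhibitor (5.57). Kupffer cells were higher for the 3 chains of C1q, which binds immune complexes, with C1qc at -5.15, C1qa at -4.77 and C1qb at -4.33. They were also higher for the receptors Vsig4, which binds C3 fragments (-5.69), and C3ar1, the receptor of the C3 cleavage peptide (-5.22). The terminal component gene C6 went against the others of its kind. It read 1998, 3271 and 2633 in hepatocytes, against 6750, 7163 and 6734 in Kupffer cells, and did not overlap (-1.38, SE 0.134, adjusted p = 1.2e-06). C3 is not analysed here.

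Coagulation genes were higher in hepatocytes for 18 of 24 members (median 3.29), including the fibrinogen genes Fgg and Fgb (5.35), the prothrombin gene F2 (5.02) and the kininogen gene Kng1 (5.39). Plau, which encodes the plasminogen activator urokinase, was higher in Kupffer cells (-3.01), as was Pros1, the anticoagulant protein S gene (-1.51). F8, the factor VIII gene, did not differ by the minimum (-0.65) and averaged 127 in hepatocytes and 247 in Kupffer cells, against 5535 in LSEC.

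Detoxification genes were mostly higher in hepatocytes. Of 28 P450 genes 23 were higher (median 3.69) and 1 was lower. The exception was Cyp4f18, a leukotriene-metabolising P450 of myeloid cells, which read 349.6, 220.9 and 182.9 in hepatocytes, against 1277, 1276 and 1075 in Kupffer cells (-1.98). Of 27 conjugation and detoxification genes 26 were higher in hepatocytes (median 3.09), led by the carboxylesterase gene Ces3a (5.37) and the glucuronosyltransferase gene Ugt2b1 (5.36). The microsomal epoxide hydrolase gene Ephx1 alone was not called, with means of 5419 in hepatocytes and 4448 in Kupffer cells (0.28).

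Bile acid genes were higher in hepatocytes for 17 of 20 members (median 2.0). The oxysterol hydroxylase gene Cyp7b1 differed by 4.89, the bile acid uptake gene Slc10a1 by 4.80, the bile acid ligase gene Slc27a5 by 4.25 and the organic anion uptake gene Slco1b2 by 4.18. The export gene Abcc4 was higher in Kupffer cells (-1.86), with means of 208 in hepatocytes and 964 in Kupffer cells. Abcc3, which also exports bile acids, read 4263, 3046 and 2671 in hepatocytes, against 6996, 6602 and 6228 in Kupffer cells, and fell just short of the minimum difference (-1.0 after rounding, adjusted p = 3.6e-05).

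Amino acid metabolism was higher in hepatocytes for 28 of 31 members (median 3.23). Besides Tat, the methionine adenosyltransferase gene Mat1a (5.51), the tryptophan dioxygenase gene Tdo2 (5.33), the cysteine dioxygenase gene Cdo1 (5.21) and the urea cycle entry gene Cps1 (5.09) had large differences. The arginase genes were divided. Arg1, the cytosolic enzyme of the urea cycle, read 4548, 4494 and 5464 in hepatocytes, against 122.6, 120 and 125.3 in Kupffer cells (4.57). Arg2, the mitochondrial arginase, read 584.1, 489.6 and 238.4 in hepatocytes, against 1169, 684.6 and 1069 in Kupffer cells (-1.06, adjusted p = 0.002). The Arg2 arrays did not overlap, but the call was lost without hepatocyte replicate 3 (-0.74), without Kupffer cell replicate 1 (-0.92) and without Kupffer cell replicate 3 (-0.98). With the pooled median as the added constant the Arg2 call was also lost (-0.87). The glutamine synthetase gene Glul averaged 4217 in hepatocytes and 4890 in Kupffer cells and was not called (-0.22).

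Gluconeogenesis and glycogen genes were higher in hepatocytes for 12 of 16 members and lower for none (median 2.47). They included Fbp1, the glucose 6-phosphatase gene G6pc (4.93), the PEP carboxykinase gene Pck1 (3.69) and the liver glycogen synthase gene Gys2 (3.35). Among isozymes of energy metabolism, 11 of 30 were higher in hepatocytes, 6 higher in Kupffer cells and 13 not called (median 0.33). The liver pyruvate kinase gene Pklr read 3914, 2880 and 2659 in hepatocytes, against 208, 187.6 and 207.9 in Kupffer cells (3.49), whereas the common form Pkm averaged 1823 in hepatocytes and 2024 in Kupffer cells (-0.14). Of the hexokinase genes, Hk3 (-3.15) and Hk2 (-2.35) were higher in Kupffer cells and Hk1 was not called (0.28). The liver glucose carrier gene Slc2a2 (3.20) and the common one, Slc2a1 (2.07), were higher in hepatocytes. Slc2a1 read 6324, 7215 and 9321 in hepatocytes, against 1696, 1677 and 1831 in Kupffer cells. Slc2a6, a lysosomal sugar carrier of myeloid cells, was higher in Kupffer cells (-2.15), as was the brain-type creatine kinase gene Ckb (-2.77).

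Of 35 fatty acid genes 19 were higher in hepatocytes, 3 in Kupffer cells and 13 not called (median 1.09). Hepatocytes were higher for the fatty acid binding protein gene Fabp1 and the transporter and ligase gene Slc27a2 (both 5.46), the desaturase gene Fads2 (4.11) and the triglyceride synthesis gene Dgat2 (3.36). Kupffer cells were higher for Lpl, the lipase that frees fatty acids from circulating lipoproteins, which read 99.57, 152.6 and 140.5 in hepatocytes, against 4861, 4212 and 4487 in Kupffer cells (-4.43). They were also higher for the fatty acid receptor gene Cd36 (-2.59) and for Cpt1a, which admits fatty acids to mitochondria (-1.07). The Cpt1a call was lost without hepatocyte replicate 2 (-0.90).

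The cholesterol synthesis genes Sqle (2.95), Msmo1 (2.81), Fdft1 (2.72) and Hsd17b7 (2.71) were higher in hepatocytes. Higher in Kupffer cells were the efflux transporter gene Abcg1 (-3.47), its activator Nr1h3, which encodes LXR alpha (-3.21), the LXR target Mylip (-2.57) and the lysosomal lipase gene Lipa (-2.22). Over the 28 tested members 14 were higher in hepatocytes, 6 in Kupffer cells and 8 not called (median 1.04). Peroxisome genes were higher in hepatocytes for 12 of 16 (median 1.46), led by the urate oxidase gene Uox (4.81). Abcd2, a transporter of very long chain fatty acids, was the exception and read 120.7, 129.3 and 161 in hepatocytes, against 1985, 2154 and 1873 in Kupffer cells (-3.25). Respiratory chain genes mostly fell short of the minimum difference, as did most tested genes. Of 24 members 4 were called higher in hepatocytes, beside 12% of all tested genes. Their median was 0.79, beside 0.02 for all genes. The called members were Ndufa4 (1.62), Ndufv1 (1.04), Ndufb5 (1.01) and Uqcrc2 (1.00). After scaling to equal medians Ndufv1 (0.97), Ndufb5 (0.95) and Uqcrc2 (0.94) were not called. Nor were they with the pooled median as the added constant (0.94, 0.91 and 0.97). Without hepatocyte replicate 3 Ndufv1 (0.92) and Ndufb5 (0.99) were not called, without hepatocyte replicate 1 Uqcrc2 was not (0.99), and without Kupffer cell replicate 3 Ndufb5 and Uqcrc2 were not (0.94 each). Uqcrc2 was also not called after quantile normalization (0.95) or without Kupffer cell replicate 2 (1.00).

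Transcription factors of hepatocytes were higher in hepatocytes for 14 of 25 tested genes (median 1.40). Hnf4a, the nuclear receptor that maintains the hepatocyte state, read 5277, 4329 and 4534 in hepatocytes, against 201.4, 203.5 and 220.1 in Kupffer cells (4.04). The glucose-responsive factor gene Mlxipl (3.05), the fatty acid receptor gene Ppara (2.54) and Nfib (2.45) followed. Tcf7l2, the Wnt effector that the list held as a regulator of liver zonation, went the other way. It read 454.6, 475.1 and 419.6 in hepatocytes, against 5633, 6635 and 6160 in Kupffer cells (-3.54, SE 0.101, adjusted p = 1.1e-11). Epithelial genes were higher in hepatocytes for 17 of 22 members (median 2.50), with the keratin genes Krt18 (5.52) and Krt8 (5.15), the tight junction gene Cldn1 (3.64) and the E-cadherin gene Cdh1 (3.57). Jup, which encodes the junction protein plakoglobin, was higher in Kupffer cells and read 544.5, 635.5 and 729.7 in hepatocytes, against 3330, 3490 and 2934 in Kupffer cells (-2.22).

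Of 30 tested transporter genes 20 were higher in hepatocytes and 5 in Kupffer cells (median 1.46). The amino acid carriers Slc38a4 (5.36) and Slc38a3 (4.75) were higher in hepatocytes, and Slc7a8 (-5.34) and Slc7a7 (-3.34), which also carry amino acids, were higher in Kupffer cells. Slc7a8 was among the 12 genes of largest difference and read 158.5, 141.6 and 200.1 in hepatocytes, against 10760, 9640 and 9675 in Kupffer cells. The lysosomal carrier genes Slc15a3 (-4.55), for histidine and peptides, and Slc29a3 (-2.41), for nucleosides, were also higher in Kupffer cells.

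The widest differences in favour of Kupffer cells were led by a lipid binding protein and a class II chain. Fabp7, known as the brain-type fatty acid binding protein, read 121.2, 119.7 and 157.7 in hepatocytes, against 12100, 13650 and 12820 in Kupffer cells, so the log2 values differed by -5.91 (adjusted p = 1.9e-11, SE 0.179). The class II chain gene H2-Aa read 174.2, 177.1 and 175.7 in hepatocytes, against 12680, 14500 and 15230 in Kupffer cells (-5.78). The liver-type Fabp1 stood on the other side of the pair. The others among the 12 were Vsig4, the secreted macrophage protein gene Cd5l at -5.68, the interleukin gene Il1a at -5.63, the lysozyme gene Lyz2 at -5.59, Ly86 at -5.58, the F4/80 gene Adgre1 at -5.57, the invariant chain gene Cd74 at -5.52, Adgre5 at -5.41, the mannose receptor gene Mrc1 at -5.38 and Slc7a8.

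Of 19 Fc receptor and signalling genes 18 were higher (median -3.80), including the IgG receptor gene Fcgr4 (-5.14) and the adaptor genes Tyrobp (-4.97) and Fcer1g (-4.63). The inhibitory receptor gene Fcgr2b read 359.8, 407.9 and 569.6 in hepatocytes, against 887.7, 783.1 and 593.2 in Kupffer cells, and was not called (-0.67); it averaged 8734 in LSEC. Of 25 scavenger and phagocytic receptor genes 16 were higher in Kupffer cells and 3 in hepatocytes (median -1.99). The Kupffer cell side held Mrc1, the scavenger receptor gene Msr1 (-5.06) and Axl, a receptor for dying cells (-5.0). The hepatocyte side held Asgr1 (3.37) and Asgr2 (3.32), which form the asialoglycoprotein receptor, and Mfge8, a bridging protein for apoptotic cells (1.36). Cd68, a macrophage endosomal glycoprotein, was well above the pooled median in both populations. It read 5424, 4869 and 5256 in hepatocytes, against 10420, 10400 and 10560 in Kupffer cells (-1.0), and without hepatocyte replicate 2 the difference was -0.96 and not called.

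Leukocyte adhesion genes were higher in Kupffer cells for 22 of 27 (median -3.65), including the tetraspanin gene Cd53 (-5.32), the integrin gene Itga9 (-4.84) and the leukocyte phosphatase gene Ptprc, which encodes CD45 (-4.68). Itga6, an integrin of epithelia, was called higher in hepatocytes (1.07). Its call was lost with the pooled median as the added constant (0.70), without hepatocyte replicate 2 (1.00) and without Kupffer cell replicate 3 (0.96). Endotoxin and nucleic acid recognition genes were higher in Kupffer cells for 17 of 26 and in hepatocytes for none (median -1.56). The genes of the RP105 complex, Cd180 (-5.17) and Ly86, the endotoxin-inactivating enzyme gene Aoah (-4.47) and the RNA sensor gene Tlr7 (-4.22) led them. Cd14, the coreceptor for endotoxin, went the other way. It read 5455, 5107 and 4441 in hepatocytes, against 2846, 2210 and 2590 in Kupffer cells (0.95, adjusted p = 1.3e-05), below the minimum difference although the arrays did not overlap. The endotoxin binding protein gene Lbp (0.71) and Ly96, which encodes the partner of Toll-like receptor 4 (-0.78), also fell short.

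Inflammasome and cytosolic sensing genes were higher in Kupffer cells for 19 of 22 and in hepatocytes for none (median -2.10). The sensor gene Nlrp3 read 74.25, 86.54 and 97.31 in hepatocytes, against 3064, 3458 and 4224 in Kupffer cells (-4.43). The flagellin sensor gene Naip5 (-4.21), the DNA sensor gene Aim2 (-3.75) and the cytokine gene Il1b (-4.19) followed it. Class II genes and costimulators were higher in Kupffer cells for 13 of 14 (median -4.08), among them Cd86, a ligand of T cell CD28 (-5.09), and Ctss, the cathepsin that trims the invariant chain (-4.89). Class I processing genes differed less, with 5 of 15 called (median -0.93), and B2m, the shared light chain of class I, averaged 12580 in hepatocytes and 12090 in Kupffer cells (0.06).

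Of 34 tested lysosomal genes 15 were higher in Kupffer cells, 2 in hepatocytes and 17 not called (median -0.97). Ctss, Laptm5 (-4.74), which encodes a haematopoietic lysosomal membrane protein, and the cathepsin C gene Ctsc (-3.68) were the largest of those higher in Kupffer cells. Higher in hepatocytes were the cathepsin L gene Ctsl (1.35) and the tetraspanin gene Cd63 (2.21). Ctsl read 7987, 7381 and 7959 in hepatocytes, against 3168, 2878 and 2945 in Kupffer cells, without overlap. Of the oxidase list 5 of 13 genes were higher in Kupffer cells (median -0.37): the gp91 gene Cybb (-5.05), the p22 gene Cyba (-4.08), Rac2 (-3.71) and Ncf4 (-3.26) were the largest, while superoxide and peroxide removing genes such as Sod1 (0.70) and Gpx4 (0.77) were not called.

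Transcription factors of macrophages were higher in Kupffer cells for 21 of 33 tested genes (median -1.56). Spi1, the myeloid master regulator, read 170.7, 129 and 189.7 in hepatocytes, against 8722, 8305 and 8968 in Kupffer cells (-5.16). Spic, a relative of Spi1 needed for red pulp macrophages, read 96.71, 69.92 and 96.6 in hepatocytes, against 5153, 4376 and 5097 in Kupffer cells (-4.86). Zeb2 (-4.36) and Tfec (-4.10) followed. There were 4 genes of this list that were higher in hepatocytes: Bhlhe41 (2.52), Ahr (1.15), Bhlhe40 (1.11) and Smad3 (1.00). Bhlhe41, a repressor named in alveolar macrophages, read 1008, 1025 and 843.9 in hepatocytes, against 88.71, 103.3 and 103.3 in Kupffer cells. Smad3 lost its call without hepatocyte replicate 1 or Kupffer cell replicate 2 (0.95 each), and Bhlhe40 without hepatocyte replicate 3 (0.99). Smad3 was also not called without hepatocyte replicate 2 (0.99) or after scaling to equal medians (0.94). With the pooled median as the added constant, Smad3 (0.85) and Ahr (0.99) were not called.

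Chemokine genes were higher in Kupffer cells for 12 of 24 and in hepatocytes for 3 (median -0.99). The inflammatory chemokine gene Ccl3 differed by -5.16, the B cell attractant gene Cxcl13 by -4.96 and Ccl6 by -4.37. The hepatocyte side held Rarres2, which encodes chemerin (4.16), Lect2 (3.98) and Ccl9 (1.39). Interferon-stimulated genes were higher in Kupffer cells for 14 of 22 and in hepatocytes for none (median -1.62), with Oas2 at -4.05 and Ifit2 at -3.78. Immediate-early genes, which tissue dissociation can induce, were higher in Kupffer cells for 9 of 27 and in hepatocytes for 1 (median -0.86). Fosb read 379.4, 356.2 and 364.4 in hepatocytes, against 8780, 11190 and 11350 in Kupffer cells (-4.54), and Fos differed by -3.63. The heat-shock gene Hsph1 was the member higher in hepatocytes (1.54). The part of isolation in the cytokine and chemokine differences, and in those of the acute phase genes given above, was not tested.

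Iron genes included both hepcidin and its target. Slc40a1, which encodes ferroportin, read 897, 586 and 742.9 in hepatocytes, against 12640, 12710 and 13290 in Kupffer cells (-3.99, SE 0.163, adjusted p = 2.8e-10), opposite to Hamp. The haptoglobin gene Hp (5.14) and the hemopexin gene Hpx (5.49), whose products bind free haemoglobin and haem, were higher in hepatocytes. Cd163, the receptor for haptoglobin-haemoglobin complexes, read 95.39, 86.85 and 154.6 in hepatocytes, against 5359, 5940 and 4963 in Kupffer cells (-4.83). The zinc and iron importer gene Slc39a14 was higher in hepatocytes (4.21), and Hfe, the haemochromatosis gene, in Kupffer cells (-2.39). Hmox1, the haem oxygenase gene, was not called and averaged 9363 ± 599 in hepatocytes and 8553 ± 356 in Kupffer cells (SD, n = 3 each; 0.13, adjusted p = 0.44). Over the list 12 of 30 genes were higher in hepatocytes, 5 in Kupffer cells and 13 not called (median 0.15).

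Of 28 genes of protein folding and secretion in the endoplasmic reticulum, 24 were not called (median 0.09), and 2 were higher on each side. Over all tested genes 25.7% were called in either direction, so most genes outside the list were not called either. Mia2, a cargo receptor gene for large secreted particles, differed by 4.10 and the cargo receptor gene Lman1 by 1.10, while Sel1l at -1.16 and Sdf2l1 at -1.10 were higher in Kupffer cells. Sdf2l1 was not called without hepatocyte replicate 1 (-0.89) or with the pooled median as the added constant (-0.93). Of 20 metallothionein and antioxidant genes 8 were higher in hepatocytes and 1 in Kupffer cells (median 0.73). Mt2, a metal-binding protein gene, differed by 3.31, the sulfiredoxin gene Srxn1 by 2.91, and Gpx3, the secreted glutathione peroxidase gene, by -2.84. Cell cycle genes were higher in Kupffer cells for 7 of 22 (median -0.42), with the cyclin gene Ccnd1 at -2.30 and the proliferation marker Mki67 at -1.53, at a mean of 119 in hepatocytes and 505 in Kupffer cells. Rrm2, the ribonucleotide reductase subunit gene, went the other way and read 2571, 1839 and 2519 in hepatocytes, against 217.9, 230.4 and 185.7 in Kupffer cells (3.01).

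**Figure D3:**
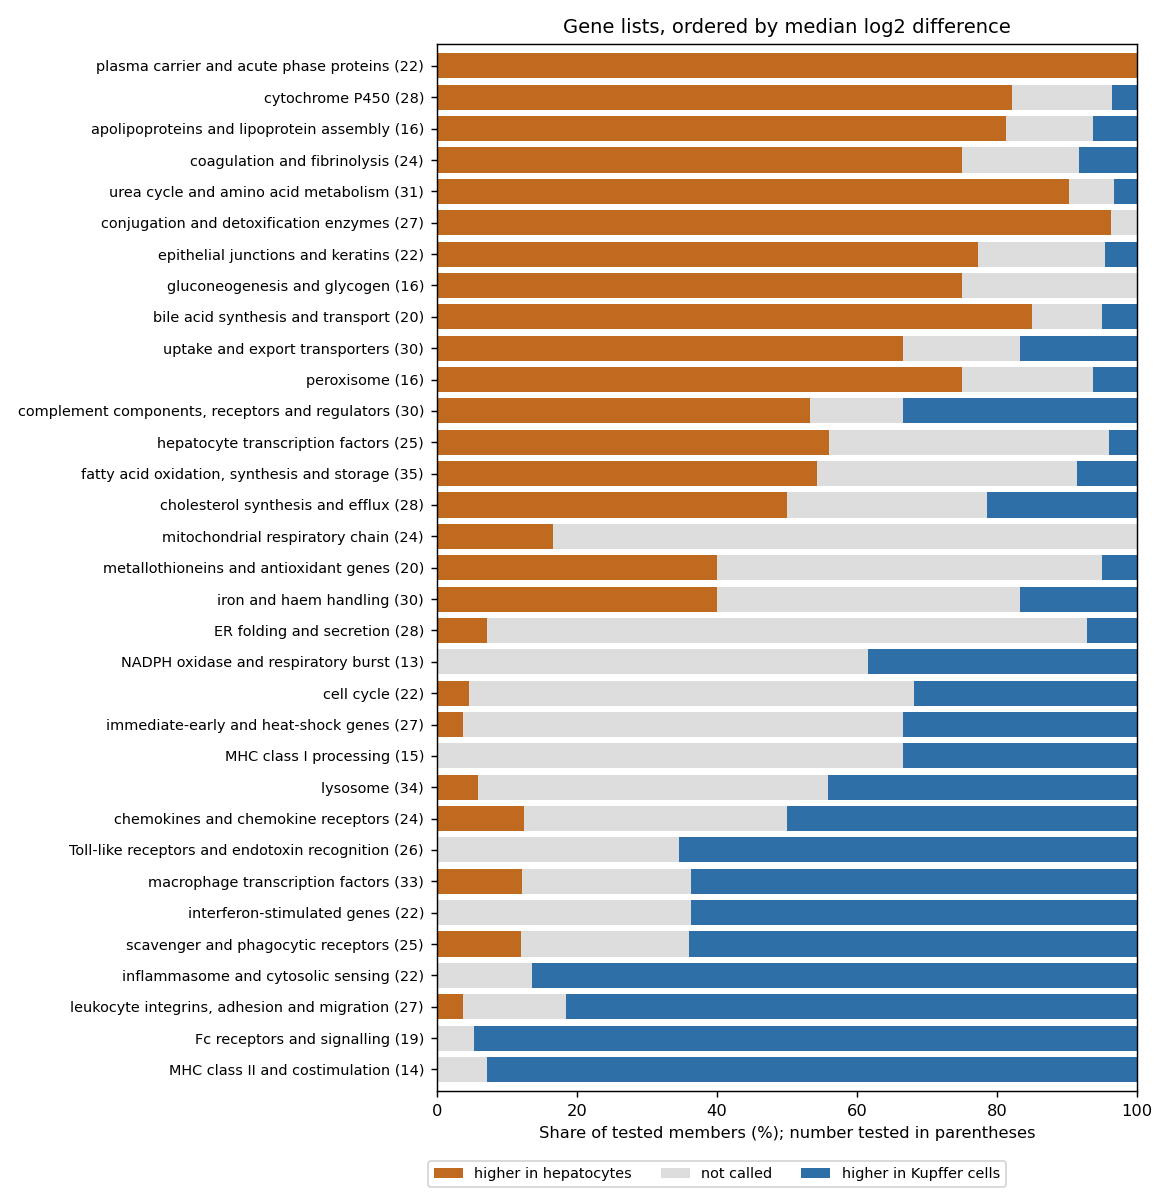
Share of the tested members of each gene list (x axis, percent; number tested in parentheses) called higher in hepatocytes (orange), not called (grey) or called higher in Kupffer cells (blue), ordered by median log2 difference. All 22 plasma carrier genes were higher in hepatocytes, 13 of 14 class II genes were higher in Kupffer cells, and 24 of 28 endoplasmic reticulum genes were not called.

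Ligands and receptors were examined across the pair, with 17 of 65 tested genes higher in hepatocytes, 29 higher in Kupffer cells and 19 not called (median -0.60). Several ligands were higher in hepatocytes and their receptors higher in Kupffer cells. Hepcidin and ferroportin, haptoglobin and Cd163, and hemopexin and Lrp1 are given above. The complement gene Hc (4.95) stood against its receptor gene C5ar1, which read 99.49, 117.2 and 128.4 in hepatocytes, against 1749, 1728 and 2206 in Kupffer cells (-3.31). The chemerin gene Rarres2 read 3863, 3964 and 4544 in hepatocytes, against 140.1, 154.4 and 160.2 in Kupffer cells, and its receptor gene Cmklr1 166.4, 164 and 207.5 in hepatocytes, against 5003, 5056 and 4434 in Kupffer cells (-4.23). The arrays of these genes did not overlap.

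Other ligands were higher in Kupffer cells with receptors higher in hepatocytes. Hgf, the hepatocyte growth factor gene, read 87.35, 79.21 and 111.7 in hepatocytes, against 1286, 796.4 and 905.7 in Kupffer cells (-2.60), and its receptor gene Met differed by 1.76. Hbegf, a ligand of the EGF receptor, differed by -1.50, and the receptor gene Egfr by 4.45, with 4950, 5626 and 6132 in hepatocytes, against 170.3, 180.7 and 175.1 in Kupffer cells. For the cytokine Il6 the ligand gene was higher in Kupffer cells (-3.59), but the receptor gene Il6ra (-0.91) and the signalling chain gene Il6st (0.47) were not called in either direction.

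In further pairs both partners were higher in Kupffer cells. They included the cytokine gene Tnf (-4.13) with its receptors Tnfrsf1b (-1.78) and Tnfrsf1a (-1.34), the cytokine gene Il10 (-3.79) with Il10ra (-4.11) and Il10rb (-3.03), and Tgfb1 (-3.47) with Tgfbr1 (-2.02). Csf1r, the receptor on which macrophages depend, was higher in Kupffer cells (-5.14), and its ligand gene Csf1 was not called, with means of 379 in hepatocytes and 200 in Kupffer cells (0.71). Mertk (-3.92) and Axl bind apoptotic cells through bridging proteins, of which the gene Gas6 was not called (0.40) and Pros1 is given above. The growth factor gene Igf1 averaged 4656 in hepatocytes and 5406 in Kupffer cells (-0.21, not called), and Vegfa was higher in hepatocytes (3.64).

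Many genes of the pair were shared with the other liver cells. Of the 1454 genes higher in hepatocytes, 80 (5.50%) were also higher in LSEC alone than in Kupffer cells, 190 (13.1%) in 1-day HSC alone, 276 (19.0%) in both, and 908 (62.4%) in neither. Of the 1654 genes higher in Kupffer cells, 257 (15.5%) were also higher in LSEC alone than in hepatocytes, 170 (10.3%) in 1-day HSC alone, 328 (19.8%) in both, and 899 (54.4%) in neither. With genes of the class "both" included, 356 (24.5%) of the genes higher in hepatocytes were shared with LSEC and 466 (32.0%) with 1-day HSC, and 585 (35.4%) and 498 (30.1%) of those higher in Kupffer cells. Of all tested genes, whether shared or not, 1242 (10.3%) were higher in LSEC than in Kupffer cells and 1558 (12.9%) in 1-day HSC than in Kupffer cells, and 1510 (12.5%) and 1481 (12.3%) were higher in those cells than in hepatocytes. Contrasts that decide the sharing use the same Kupffer cell arrays, or the same hepatocyte arrays, so the counts are descriptions. The number of Kupffer cell genes shared with either population was 755, and 477 with the pooled median as the constant added before the log.

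**Figure D4:**
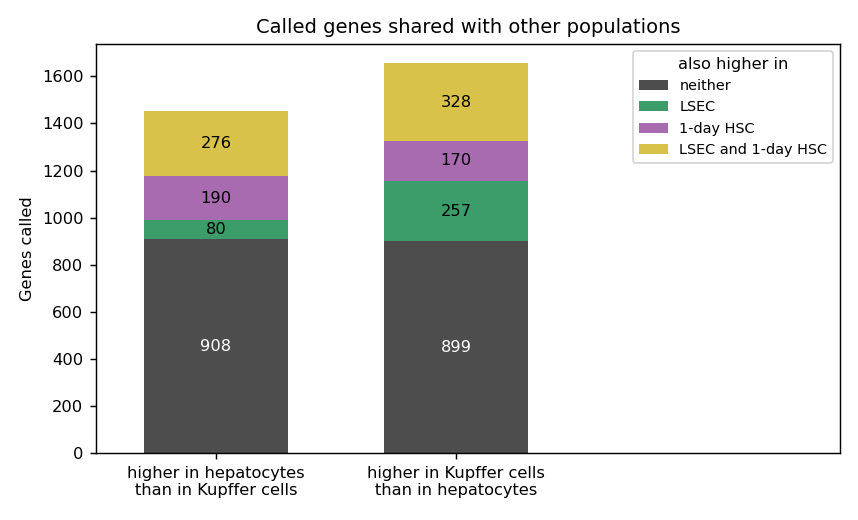
Number of genes called higher in hepatocytes than in Kupffer cells (left bar, 1454) and higher in Kupffer cells than in hepatocytes (right bar, 1654), divided by whether the gene was also called higher in LSEC, in 1-day HSC, in both or in neither. The largest class on each side was shared with neither, 908 and 899 genes.

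Among genes shared by hepatocytes and LSEC, Fabp4, a fatty acid binding protein of fat cells and endothelium, read 2208, 1772 and 2652 in hepatocytes, against 137.1, 166.4 and 148.7 in Kupffer cells (3.28), with a mean of 2823 ± 514 in LSEC (SD, n = 3). The P450 gene Cyp2d22 (3.65), the lysine-degrading enzyme gene Aass (3.60), the ephrin gene Efna1 (3.75), the growth factor binding protein gene Igfbp4 (3.32) and the ubiquitin ligase gene Rnf125 (4.20) were in the same class. Genes high in all cells but Kupffer cells included Ghr, the growth hormone receptor gene. It read 4680, 4950 and 5456 in hepatocytes, against 97.58, 76.46 and 79.42 in Kupffer cells (4.93), and averaged 2103 in LSEC and 3160 in 1-day HSC, so Kupffer cells were set apart as the low population. For Lcn2 in the same class the levels of the other cells were much lower than in hepatocytes, at a mean of 571 in LSEC and at 3993 and 1567 on the 1-day HSC arrays. Hamp, Fbp1, Cyp2f2, Tat, C9 and Mat1a were the largest of those shared with neither.

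Genes shared by hepatocytes and 1-day HSC alone were led by hepatocyte proteins: Cyp2e1, Orm1, Fgg, Rbp4, Saa2 and Cyp4a12a. Cyp2e1 read 3340 and 1299 on the 1-day HSC arrays, against 64.28 at 7 days and 76.91 at 14 days of culture, and 74.29, 87.87 and 93.42 in LSEC. Summed hepatocyte marker intensity was 29779 and 15835 on the 1-day HSC arrays, against 5220 at 7 days, 4948 at 14 days and 2759 to 3112 in LSEC. The part of hepatocyte RNA on the 1-day HSC arrays in these shared counts was not tested.

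Genes shared by Kupffer cells and LSEC included scavenging and signalling genes. Mrc1, which takes up mannosylated glycoproteins, read 109.8, 108 and 94.83 in hepatocytes, against 7372, 8089 and 7632 in Kupffer cells, and averaged 2106 ± 799 in LSEC (SD, n = 3). The C-type lectin gene Clec1b (-4.21), which averaged 1568 in LSEC, the phospholipid flippase gene Atp8a1 (-4.24), the kinase gene Prkcb (-4.14) and Tnf were in this class. Genes higher in all cells than in hepatocytes included Adgre5 and the creatine-synthesis gene Gatm, which read 108.5, 123.1 and 157.9 in hepatocytes, against 7039, 7031 and 5959 in Kupffer cells (-4.99), and averaged 2822 in LSEC. They also included Il1a, Msr1 and the ectonucleotidase gene Entpd1 (-5.31), at lower levels in the other cells. Shared with 1-day HSC alone were Fabp7, H2-Aa, Vsig4, Lyz2, Ly86 and Adgre1. Vsig4 and Adgre1 averaged 545 and 525 in 1-day HSC, against 10670 and 9114 in Kupffer cells, and the median Kupffer cell marker stood at 4.2% and 5.81% of its Kupffer cell level on the 1-day HSC arrays. The part of Kupffer cell RNA in that class was not tested. Cd5l, the purine receptor gene P2ry13 (-5.27), Clec4f, Pld4 (-5.18), Ccl3 and C1qc were the largest of those shared with neither.

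Within the populations a small number of genes differed among replicates by more than 1 on the log2 scale, 120 in hepatocytes and 46 in Kupffer cells. In hepatocytes the widest was the cystine carrier gene Slc7a11, with 3202, 4281 and 573.4 on replicates 1, 2 and 3, and 117.3, 107.4 and 85.96 in Kupffer cells. It was followed by the fatty acid elongase gene Elovl3, with 517, 3613 and 2851. Replicate 3 was the low array for Slc7a11 and replicate 1 for Elovl3. The acute phase gene Saa1 read 596.7, 1250 and 2216 in the same order, and Hamp2, chosen after its values were seen, 553.3, 761.5 and 1500. Of the 120 genes, the array farthest from the middle one was replicate 1, below it, for 54 and replicate 3, below it, for 35. The interferon-inducible genes Ifit3 and Rtp4, chosen after their values were seen, were lowest on replicate 3, with 668.1, 479.5 and 199.3 for Ifit3 and 1106, 1056 and 277.4 for Rtp4. In Kupffer cells Ifit3 read 2325, 2152 and 2754.

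Several cytokine genes were among those of wide range in Kupffer cells. The interferon gene Ifnb1 read 94.36, 410.1 and 960.7 on replicates 1, 2 and 3, and Ccl5 1467, 3481 and 6234. The chemokine gene Ccl4 read 1132, 2692 and 3683. Tnf (2846, 4754 and 6576) and Cxcl10 (4737, 8124 and 11520), with Cxcl10 and Ccl4 chosen after their values were seen, ran in the same order, so replicate 1 was lowest for these genes. The platelet chemokine gene Ppbp read 1396, 268.6 and 308 and was highest on replicate 1, the array that also had the highest summed hepatocyte and B cell markers. Marco, a scavenger receptor of the Kupffer cell marker list, read 2511, 952.6 and 766.9, against 175.7, 172.9 and 233.8 in hepatocytes (-2.26), and was called despite this spread.

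**Figure D5:**
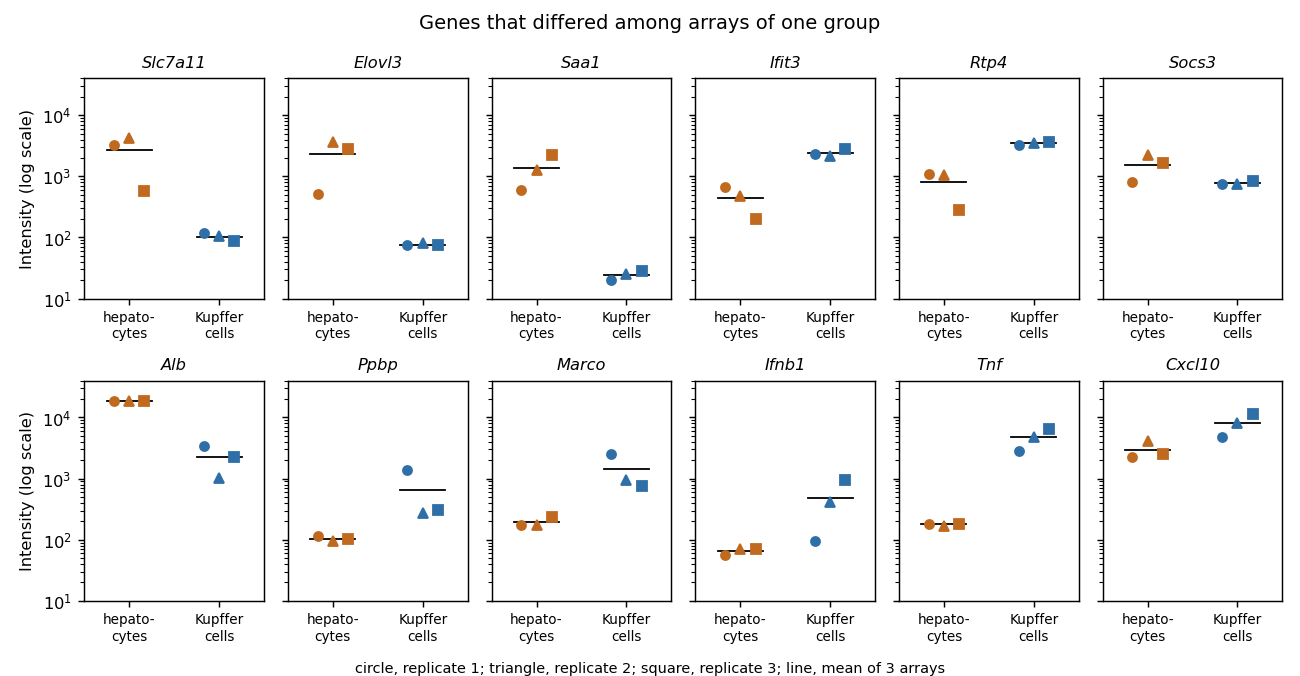
Intensity (log scale) on each hepatocyte array (orange, left) and each Kupffer cell array (blue, right) of 12 genes with wide ranges within a population; symbols mark replicates and lines the mean. Slc7a11, Ifit3 and Rtp4 are lowest on hepatocyte replicate 3, Elovl3 and Socs3 on hepatocyte replicate 1, and Ifnb1, Tnf and Cxcl10 on Kupffer cell replicate 1, where Alb, Ppbp and Marco are highest. Socs3 was picked outside the rule for named genes.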

How the data were processed

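Gene expression was measured on Affymetrix mouse arrays hybridised with biotin-labelled cRNA. The deposited values are linear intensities, 1 for each of 25194 probe sets on an array, and run from 10.6 to 28854 with no detection calls. Per the submitters' processing notes, Affymetrix Expression Console and MAS5 version 5.0 were used, with no role given. The genome build is not given in the sources used here, nor are background correction and normalization, so the summary method behind the values is uncertain. Depth does not apply to arrays.

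From these values, 21181 probe sets with a single gene symbol gave 19537 genes, and 21097 of the probe sets matched the RefSeq table of GRCm38.p6 by Entrez identifier. Another 1379 probe sets listed more than 1 symbol and 2634 listed no symbol, and these were not used. Of 169 called genes with several probe sets, 8 had probe sets on both sides of 0 and 0 had differences of at least 1 on both sides. The constant 83 is the pooled 20th percentile (82.7), rounded up. The 11 arrays of hepatocytes, Kupffer cells, LSEC and 1-day HSC were fitted in limma 3.58.1 (R 4.3.3) with eBayes, residual and prior degrees of freedom of 7 and 4.86. Tests were two-sided and adjusted by Benjamini-Hochberg over 12081 genes. The members and gene lists, written from textbook knowledge, were chosen with earlier results of these data known. Named genes were the 12 of largest difference in each direction, up to 4 called members a direction and 2 not called in each list, all markers, isozymes, ligands and receptors, the 6 largest per sharing class and the 6 of widest range in each population. Genes named outside that rule are said to be so, or serve as examples of list members not called or of absent markers. In simulated data over 12081 genes, a shift of 1.5 on the log2 scale was found for 198 of 200 changed genes, with 1 false call. Shifts of 2 and of 3 were found for 200 of 200, with 0 false calls. The simulated noise was normal and independent between arrays, around a common mean per gene for all populations, and no filter was applied. The simulation checks that the fit finds planted shifts and does not estimate the false calls in the real data. Alternatives covered the constant, normalization, the filter, the probe set rule, the arrays in the fit, the prior, a replicate block and leaving out each array.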

Additional observations from a re-analysis of the deposited data

How the results depend on the processing

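The counts of genes higher in hepatocytes (1454), higher in Kupffer cells (1654) and shared with LSEC or 1-day HSC on each side (546 and 755) stayed within 1.5 times under all alternatives but those named here. With the adjusted p alone and no minimum difference they were 4175, 4160, 2708 and 3110. With the pooled median as pseudocount the shared Kupffer cell genes were 477, against 1143, 1359 and 367 for the other counts. Leaving out each array in turn gave 1427 to 1486, 1626 to 1715, 510 to 587 and 720 to 808. With a replicate block the counts were 1454, 1654, 546 and 750. Deviations of hepatocyte and Kupffer cell arrays of the same number correlated at 0.03, 0.04 and 0.02, and not every array correlated best with its own number. With 3 arrays a population, such correlations cannot decide whether equal numbers mark a shared animal or batch. The labels do not say, and the main fit left the numbers out. A fit of only the 6 arrays gave 1453 and 1654 and cannot give shared counts. Of 377 named genes tested, 281 were called, 0 reversed and 20 lost the call under at least 1 alternative, 13 of them when 1 array was left out. Scaling to equal medians moved the median of all genes to -0.03. Signal near the low end of the arrays limits the folds of dim genes, and with 3 arrays a population the spread of any single gene is weakly known.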

Other observations

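Clock genes were examined as a list chosen after values had been seen, since the sources used here do not give the time of day of isolation. Of 16 tested members 5 were higher in hepatocytes, 1 was higher in Kupffer cells and 10 were not called, with a median log2 difference of 0.62. Ciart, a repressor of the clock, read 2467, 2744 and 2380 in hepatocytes, against 180, 462.3 and 413.3 in Kupffer cells (2.65). Nfil3, a repressor of output genes, differed by 2.41, Bhlhe41 by 2.52 and the cryptochrome gene Cry2 by 1.51. Arntl, which encodes the activator BMAL1, read 244.5, 231.6 and 255.7 in hepatocytes, against 638, 658.2 and 730.5 in Kupffer cells (-1.21, adjusted p = 6.6e-07 by limma). Nr1d1, the haem-binding repressor of Arntl, read 3656, 5769 and 5044 in hepatocytes, against 1449, 4536 and 3782 in Kupffer cells and was not called (0.68, adjusted p = 0.075), with Kupffer cell replicate 1 apart from the other two.

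Sex-linked genes were also examined after values were seen. Xist, the noncoding RNA of the inactive X chromosome, read 54.02 to 69.24 over the 6 arrays and was not tested. Of the Y-linked genes, Uty, a relative of a histone demethylase, read 482.7, 504.3 and 342.3 in hepatocytes, against 1134, 974.2 and 1102 in Kupffer cells, and was called higher in Kupffer cells (-1.14). Kdm5d, a histone demethylase gene, read 473, 359.9 and 357.7 in hepatocytes, against 709.4, 605 and 554.5 in Kupffer cells, without overlap but below the minimum difference (-0.56). Eif2s3y, a translation initiation factor gene, read 1151, 940.1 and 706.8 in hepatocytes, against 1040, 1055 and 1054 in Kupffer cells, and overlapped (-0.18, not called).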
